A study of Glycyrrhiza uralensis with 30 samples.

Results

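The stems and leaves of untreated *Glycyrrhiza uralensis* seedlings, a licorice, were compared with their roots. The comparison used the 6 untreated libraries among the 30 libraries of the series, chosen by their descriptions: 3 of aboveground parts (stems and leaves) and 3 of underground parts (roots), both given as control (CK) and as kept in distilled water. The libraries are numbered 31, 32 and 33 in each part, after their titles. The other 24 libraries came from seedlings held for 2, 6, 12 or 24 h in nutrient solution with polyethylene glycol 6000 (PEG 6000, a polymer that makes water harder to take up) at 100 g/L, with 3 libraries for each part and time, and were used only to set the untreated differences beside separate samples. All seedlings are labelled as 60 days old, while the treatment text mentions 1 week of hydroponic culture, and how the ages relate is not given in the sources used here. No genotype or cultivar is named, and the labels are silent on whether replicate libraries came from different seedlings. The p-values therefore cover the spread among these libraries alone, which may be technical.

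Shoots and roots do different work from one genome. Green stems and leaves capture light and fix carbon in chloroplasts, and roots take up water and mineral ions, store reserves and, in licorice, accumulate the triterpenoid glycyrrhizin and many flavonoids for which the plant is harvested. Each part is a mixture of tissues, so in these bulk samples fewer cells of a type and less RNA per cell cannot be told apart. The files list genes by identifier without names, so the genes could not be assigned to these functions, and 4 genes are given by identifier while the others are described as groups.

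The measured quantity was TPM, a transcript abundance corrected for length and expressed as a share of the library, listed for 34445 genes. Read numbers cannot be had from TPM, so the depth is unknown and no counting interval is given. At least 1 TPM was reached by 20961, 20587 and 21486 genes in aboveground libraries 31, 32 and 33, against 20247, 20676 and 20791 genes in underground libraries 31, 32 and 33. The counts of the parts overlapped (exact two-sided permutation test, p = 0.3, adjusted p = 0.6 over 4 measures, n = 3 each), and 3 against 3 libraries cannot give a p under 0.1. At least 1 TPM in all 3 libraries of a part was reached by 18769 genes aboveground and 18491 genes underground. The 16613 genes common to both lists were 88.5% of the aboveground list and 89.8% of the underground list, so most genes detected in one part were detected in the other.

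The labelled part of each library was checked with genes set in the treated libraries alone, since no marker genes could be named. 7 genes had at least 10 TPM in all 12 treated aboveground libraries and under 0.5 TPM in all 12 treated underground libraries. Their summed level was 320.3, 732 and 363 TPM in untreated aboveground libraries 31, 32 and 33, against 1.11, 0.44 and 2.86 TPM in untreated underground libraries 31, 32 and 33. 4 genes met the reverse condition. Their summed level was 0.03, 0.06 and 0.24 TPM in the untreated aboveground libraries, against 199.99, 252.7 and 288.3 TPM in the untreated underground libraries. All 6 libraries therefore carried the transcripts of the part on their label, and the groups did not overlap for either set. Across the 21825 tested genes, the log2(TPM + 1) values of libraries of one part correlated at r = 0.871 to 0.910 aboveground and 0.885 to 0.932 underground, and those of libraries of different parts at 0.506 to 0.606; these correlations run across genes, which are not independent replicates.

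Aboveground library 33 stood somewhat apart from aboveground libraries 31 and 32. A wider set of 594 genes averaged at least 8-fold higher underground in the treated libraries, a difference of 3 on the log2(TPM + 1) scale, a limit chosen after the data were seen. Their median log2(TPM + 1) was 0.86, 1.04 and 1.71 in untreated aboveground libraries 31, 32 and 33, against 5.52, 5.70 and 5.50 in untreated underground libraries 31, 32 and 33. Library 33 had the highest aboveground value for 368 of these genes, library 32 for 120 and library 31 for 66. These genes held 0.540%, 0.376% and 0.942% of the summed TPM of the aboveground libraries, against 15.1%, 15.1% and 14.7% in the underground libraries. The corresponding 1056 genes of the aboveground parts had medians of 5.95, 6.09 and 5.85 in untreated aboveground libraries 31, 32 and 33, against 1.01, 1.05 and 1.27 in untreated underground libraries 31, 32 and 33. Aboveground library 33 thus held more transcript of the underground parts than aboveground libraries 31 and 32. Underground, library 33 was likewise highest on these measures, by smaller margins. It had the highest underground value for 385 of the 1056 genes, library 31 for 312 and library 32 for 255. These genes held 0.788%, 0.713% and 0.884% of the summed TPM of underground libraries 31, 32 and 33. The share of underground library 33 leaned on a single gene, with 1653 of the 8447 TPM summed there. The highest of these genes had 222 and 185 TPM in underground libraries 31 and 32. Library 33 also had the lowest underground level of some single genes of the aboveground parts. The part that aboveground library 33 plays in the results was not tested beyond leaving it out. Results are given with and without aboveground library 33 where it moved them.

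In the untreated seedlings, 3680 genes were higher in the aboveground than in the underground parts and 3990 were lower. They were 16.9% and 18.3% of the 21825 genes with at least 1 TPM in at least 3 of the 6 libraries, or 35.1% together, at a limma Benjamini-Hochberg adjusted p under 0.05. Differences of at least 2-fold were called for 3380 genes higher aboveground (15.5%) and 3153 genes higher underground (14.4%). No overlap between the 3 aboveground and the 3 underground values was seen for 4872 genes higher aboveground (22.3%) and 6019 genes higher underground (27.6%), and 3675 and 3978 of the called genes were among them. Over all tested genes the median log2 difference, aboveground minus underground, was -0.14, and it was 0.0019 after the libraries were rescaled by median ratios, which gave 4066 genes higher aboveground and 3301 higher underground. Which part had more favoured genes therefore turned with the scaling.

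**Figure D1:**
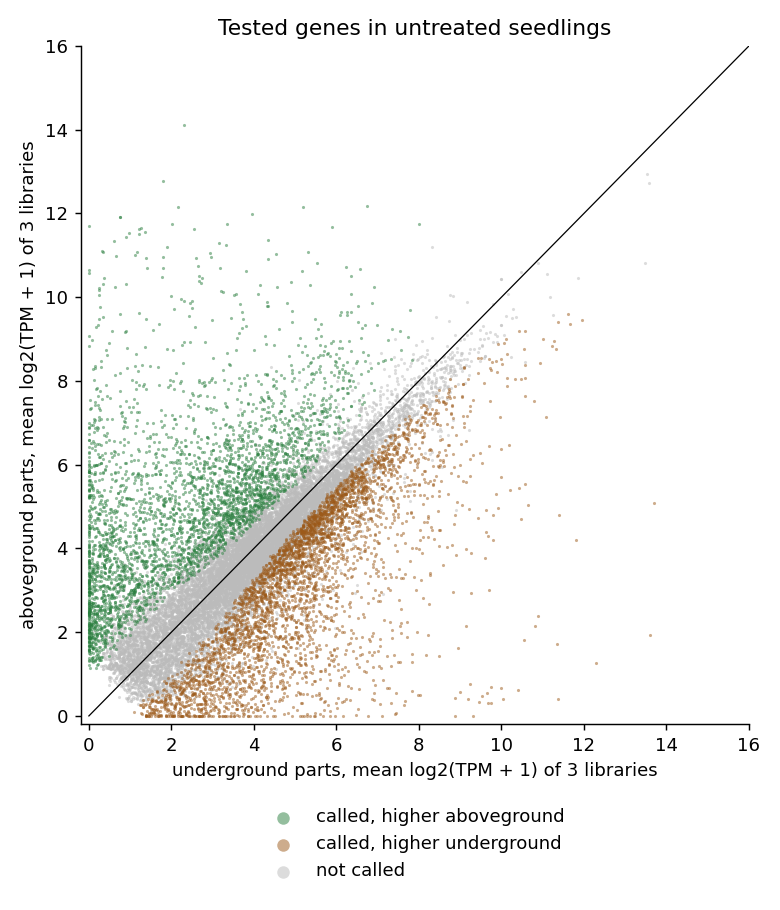
Mean log2(TPM + 1) of the 3 aboveground libraries (vertical axis) against that of the 3 underground libraries (horizontal axis) for each of the 21825 tested genes in untreated seedlings, with the line of equal levels; green points were called higher aboveground (3680), brown points higher underground (3990) and grey points were not called. The green points spread further from the line at high levels than the brown ones.

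Leaving out single libraries, which leaves a part with 2, lowered the numbers of genes called, except that the genes at least 2-fold higher underground numbered 3309 without aboveground library 33. Without aboveground library 31, 4439 genes were called (2101 higher aboveground, 2338 higher underground), and 2065 of those higher aboveground differed at least 2-fold. Without aboveground library 33, 2440 genes were higher aboveground, 2337 of them at least 2-fold, and 3691 were higher underground. The order of the 2-fold counts turned whichever aboveground library was left out. It was 2065 aboveground against 2205 underground without aboveground library 31, and 2510 against 2675 without aboveground library 32. The order held without any underground library. With 2 libraries left in a part, genes reaching the filter level in that part alone could not be tested. Whether this filter turned the order was not tested. Without underground library 32, 4898 genes were called, of which 1970 were higher underground, 1840 of them at least 2-fold, and without underground library 31, 2646 were higher underground. Of the 3680 genes higher aboveground, 2359 were also called without aboveground library 33, and of the 3990 higher underground, 3251 were.

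The called genes higher aboveground had larger differences than those higher underground. The median log2 difference was 2.18 over the genes higher aboveground and -1.59 over the genes higher underground, as a description of genes called on the same values. A difference of 5 or more on the log2(TPM + 1) scale was found for 358 genes higher aboveground (9.73% of those calls) and 143 genes higher underground (3.58%). Differences between 3 and 5 were found for 799 and 500 genes, between 2 and 3 for 897 and 796, between 1 and 2 for 1326 and 1714, and under 1 for 300 and 837. The larger classes thus held more genes higher aboveground and the smaller classes more genes higher underground, a contrast between the lists that was not tested. Without aboveground library 31, 32 or 33 the class of 5 or more held 198, 190 or 207 genes higher aboveground and 135, 140 or 177 higher underground, in fits where a gene needed 1 TPM in 3 of 5 libraries. Without aboveground library 33 the medians were 2.23 and -1.90. The log2(TPM + 1) scale understates the difference of genes with low levels.

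**Figure D2:**
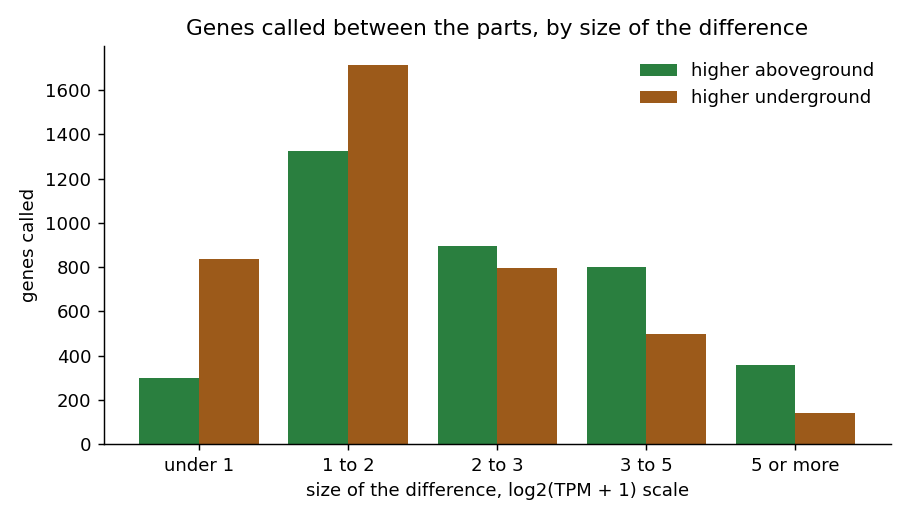
Number of genes called higher aboveground (green, left bar) and higher underground (brown, right bar) in untreated seedlings, by the absolute difference on the log2(TPM + 1) scale. The class of 5 or more holds 358 genes higher aboveground and 143 higher underground, and the class under 1 holds 300 and 837.

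Genes favoured by a part made up much of its RNA. Those called higher aboveground held 47.1%, 48.3% and 40.7% of the summed TPM in aboveground libraries 31, 32 and 33, against 4.30%, 4.42% and 3.86% in underground libraries 31, 32 and 33. Those called higher underground held 9.15%, 9.19% and 11.4% in the aboveground libraries, against 43.9%, 41.7% and 40.7% in the underground libraries. The 358 genes with the largest aboveground differences alone held 22.7% to 26.4% of the aboveground libraries, against 0.117% to 0.166% of the underground libraries. The 143 genes with the largest underground differences held 0.0332% to 0.129% of the aboveground libraries, against 9.12% to 10.4% of the underground libraries. Since the genes were chosen for their difference on these libraries, the shares describe its weight in the RNA pool and are not a test.

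**Figure D3:**
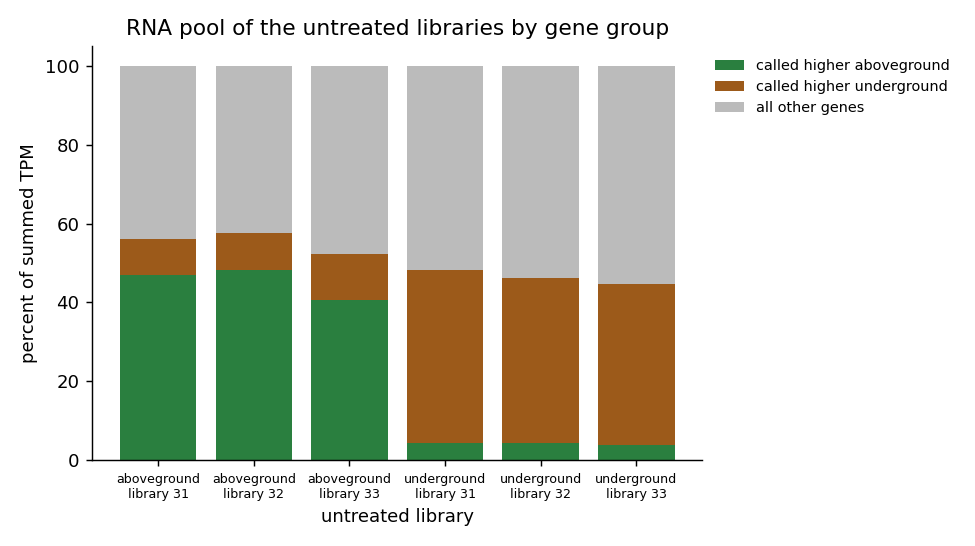
Percent of the summed TPM of each of the 6 untreated libraries (aboveground on the left, underground on the right) in genes called higher aboveground (green), genes called higher underground (brown) and all other listed genes (grey). The green share is 40.7% to 48.3% aboveground and 3.86% to 4.42% underground, and the brown share is 9.15% to 11.4% aboveground and 40.7% to 43.9% underground.

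Calls were more common among abundant genes. Of the 73 tested genes that averaged 1000 TPM or more over the 6 libraries, 36 were higher aboveground and 21 higher underground, 78.1% together. The called share was 53.4% of 1595 genes between 100 and 1000 TPM, 37.7% of 11968 genes between 10 and 100 TPM and 27.5% of 8189 genes under 10 TPM, beside 35.1% of all tested genes. The shares held by the most abundant genes overlapped between the parts. The 10 most abundant genes of a library held 7.58%, 8.05% and 6.50% of the summed TPM in aboveground libraries 31, 32 and 33, against 8.04%, 8.26% and 14.2% in underground libraries 31, 32 and 33 (exact two-sided permutation test, p = 0.2, adjusted p = 0.6 over the 4 measures). The 100 most abundant genes held 24.5 ± 2.03% aboveground and 23.7 ± 2.67% underground (SD, n = 3 each, exact permutation p = 0.9), and the 1000 most abundant 52.7 ± 2.22% aboveground and 51.7 ± 1.39% underground (exact permutation p = 0.5).

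The most abundant genes of the parts were largely different genes. Of the 10 genes with the highest mean in each part, 2 were common to both lists, of the 100 highest 13 were, and of the 1000 highest 471 were. Among the 100 highest aboveground, 83 were called higher aboveground and 0 higher underground. Among the 100 highest underground, 70 were called higher underground and 0 higher aboveground. Of all tested genes, 16.9% were called higher aboveground and 18.3% higher underground. The lists were ranked on the libraries that also gave the calls, so a lean to their own part is built in and these counts are a description. Neither of the genes in both lists of 10 was called. The first had 7019, 8848 and 7826 TPM in aboveground libraries 31, 32 and 33, against 11814, 12983 and 10936 TPM in underground libraries 31, 32 and 33 (log2 difference -0.60, limma adjusted p = 0.734). Its values did not overlap, yet the difference did not pass the test. The limma test also draws on the spread of other genes of like abundance, so this p-value does not measure the gene's own spread alone. A like level of this gene in the parts is not shown by it. The second had 4324, 10857 and 6676 TPM in the aboveground libraries, against 7825, 10847 and 21354 TPM in the underground libraries, with overlapping groups (log2 difference -0.84, limma adjusted p = 0.631). The gene with the highest underground mean owed its place to 1 library. It had 325, 3570 and 4933 TPM in the aboveground libraries, against 4124, 7946 and 46083 TPM in the underground libraries, with overlapping groups and a limma adjusted p of 0.196.

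Glyur000604s00024572 had the largest difference of the 2836 genes higher aboveground that could be chosen, namely those called, with no overlap between the parts, a mean in the higher part of 10 TPM or more and a value above 0 in the other part. It had 23664, 15460 and 15485 TPM in aboveground libraries 31, 32 and 33, against 3.59, 6.24 and 2.69 TPM in underground libraries 31, 32 and 33. It was the most abundant gene in each aboveground library and stood at places 15153 to 18353 in the underground libraries. The means were 18203 ± 4729 TPM aboveground and 4.17 ± 1.85 TPM underground (SD, n = 3 each), and the log2 difference was 11.81 (SE 0.33, limma adjusted p = 3.32e-06). Its function is not given in the files.

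Glyur000183s00013020 had the next highest aboveground mean among these genes. It had 8903, 6002 and 6595 TPM in aboveground libraries 31, 32 and 33, against 1.72, 1.88 and 4.22 TPM in underground libraries 31, 32 and 33. The groups lay far apart, with a log2 difference of 11.00 (SE 0.31, limma adjusted p = 3.39e-06). Under PEG its aboveground mean was lowest at 12 h, with 621 ± 320 TPM, and stood between 3958 ± 1123 TPM (2 h) and 5628 ± 1030 TPM (6 h) at the other times (SD, n = 3 each). All 12 treated aboveground values, from 355 TPM upward, lay above the highest treated underground value of 208 TPM.

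Glyur001944s00035546 had the largest difference of the 3301 genes higher underground that met the same conditions. It had 0.22, 1.15 and 20.3 TPM in aboveground libraries 31, 32 and 33, against 10949, 7114 and 24906 TPM in underground libraries 31, 32 and 33. Its highest value in each part was that of library 33. The means were 7.24 ± 11.4 TPM aboveground and 14323 ± 9364 TPM underground (SD, n = 3 each), and the log2 difference was -11.67 (SE 1.06, limma adjusted p = 3.28e-04). The genes with the next largest underground differences carry the same identifier prefix, the characters before the letter s: the 3 largest underground differences all belonged to it. Of the 8 other tested genes with this prefix, 7 were called higher underground and 0 higher aboveground, beside 18.3% and 16.9% of all tested genes. Their log2 differences ran from -11.02 to -0.31. Prefixes of the other named genes were mixed. Called higher aboveground and underground were 1 and 1 of 9 other tested genes for Glyur000604s00024572, 5 and 5 of 28 for Glyur000183s00013020, and 7 and 3 of 33 for Glyur000045s00009983, described below. If the genes with the prefix Glyur001944 are near-identical copies, reads could have been split among them, and the level of a single one is uncertain. With single libraries left out, the log2 difference of Glyur001944s00035546 ranged from -12.91 without aboveground library 33 (adjusted p = 1.28e-04) to -10.85 without aboveground library 31 (adjusted p = 0.00205).

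Glyur000045s00009983 had the highest underground mean among the genes that met the conditions. It had 5.77, 38.7 and 144 TPM in aboveground libraries 31, 32 and 33, against 18532, 20117 and 6449 TPM in underground libraries 31, 32 and 33. It was the most abundant gene of underground libraries 31 and 32 and stood at place 6 in library 33. Aboveground its untreated value was highest in library 33, and a link to the transcript of the underground parts held there was not tested. At 6 h in PEG, aboveground libraries 4, 5 and 6 had 270.4, 203 and 9.67 TPM. In the untreated libraries the log2 difference was -8.63 (SE 1.09, limma adjusted p = 0.0013). With single libraries left out, it ranged from -9.67 without aboveground library 33 (adjusted p = 0.0011) to -7.46 without aboveground library 31 (adjusted p = 0.00326).

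All 4 genes kept their direction in the treated seedlings, which are separate samples. Glyur000604s00024572 ranged from 5609 to 36109 TPM with a median of 15719 TPM in the 12 treated aboveground libraries, against 0.2 to 513 TPM with a median of 1.5 TPM in the 12 treated underground libraries. Glyur001944s00035546 ranged from 0 to 7.15 TPM aboveground (median 3.64), against 1259 to 25765 TPM underground (median 6225). Glyur000045s00009983 ranged from 9.67 to 270.4 TPM aboveground (median 86.4), against 5524 to 27747 TPM underground (median 18598). The treated groups of the parts did not overlap for any of the 4 genes, and the difference between the parts passed limma's test at each of 2, 6, 12 and 24 h, with adjusted p from 1.93e-06 to 0.00966.

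**Figure D4:**
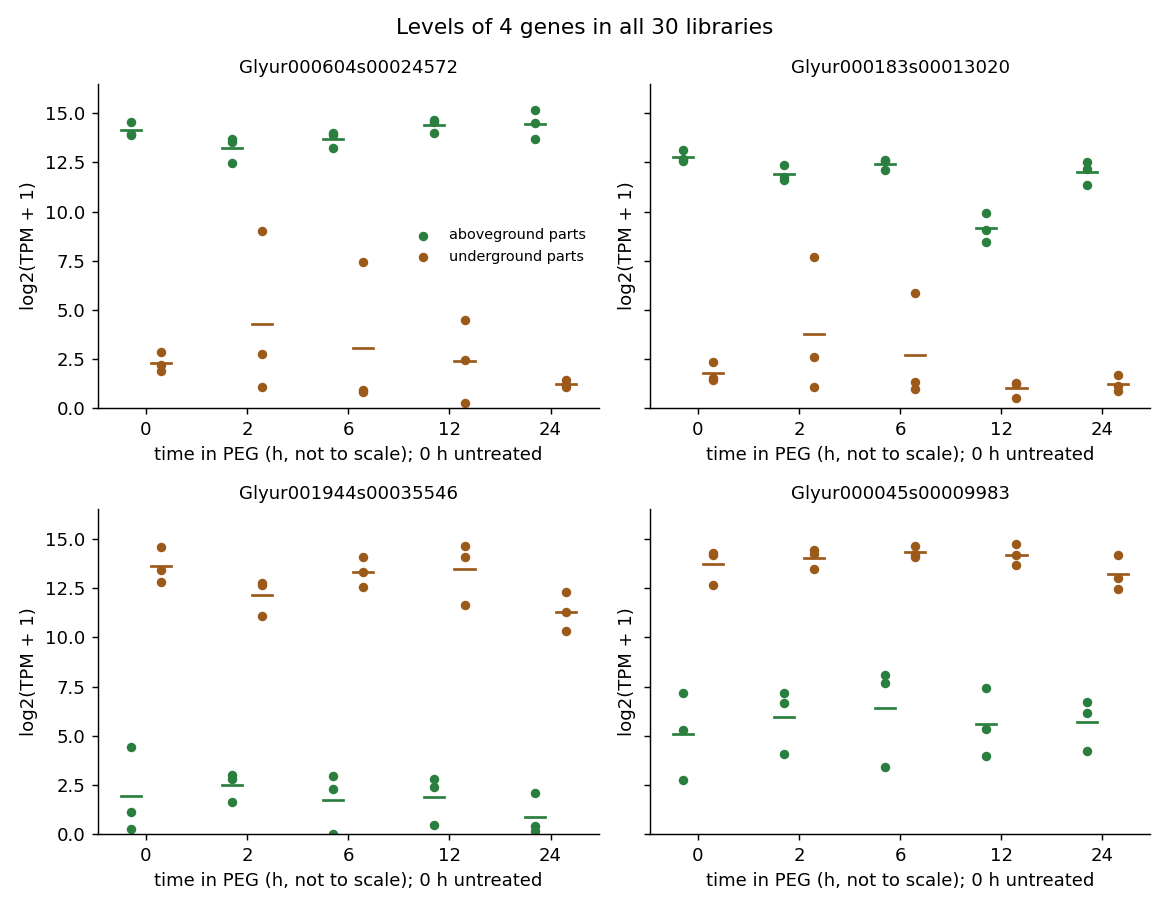
log2(TPM + 1) of 4 genes in every library, by time in PEG (0 h is untreated, the time axis is not to scale), with aboveground parts in green on the left and underground parts in brown on the right; points are libraries and short lines are means of 3 libraries. The upper genes, Glyur000604s00024572 and Glyur000183s00013020, lie higher aboveground and the lower ones, Glyur001944s00035546 and Glyur000045s00009983, higher underground at every time.

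Some genes were detected in 1 part alone. At least 1 TPM in all 3 aboveground libraries with a listed value of 0 in all 3 underground libraries was found for 185 genes, and the reverse for 86 genes. The aboveground group had a median level of 8.41 TPM in its part and reached 3377 TPM, with 83 genes at a mean of 10 TPM or more and 12 at 100 TPM or more. The underground group had a median of 7.15 TPM and reached 667.5 TPM, with 34 genes at 10 TPM or more and 6 at 100 TPM or more. No fold is given for these genes, since a listed 0 has no interval without read numbers.

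In the treated seedlings few of these genes stayed at 0 in the other part throughout. Of the 185 aboveground genes, 34 were listed at 0 in all 12 treated underground libraries, 73 reached 1 TPM in at least 1 of them and 8 reached 10 TPM. Of the 86 underground genes, 14 were listed at 0 in all 12 treated aboveground libraries, 48 reached 1 TPM and 19 reached 10 TPM. In their own part, 83 of the 185 and 26 of the 86 had at least 1 TPM in all 12 treated libraries. By a listed 0, absence from the other part therefore described the 6 untreated libraries for most of these genes and did not extend to all libraries of the series. By the limit of 1 TPM the outcome was milder, since 73 of the 185 and 48 of the 86 reached it in the other part.

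A like level in the parts was shown for 5004 genes, 22.9% of those tested, whose 95% confidence interval of the difference lay wholly within 2-fold in either direction. Their median absolute log2 difference was 0.18, and together they held 18.1% to 20.8% of the summed TPM of the untreated libraries. Of them, 56 were also called as different. For 9207 genes, 42.2% of those tested, neither a difference nor a like level was shown. The intervals of 649 genes lay within 1.5-fold, a limit added after the data were seen. The 5004 genes became 3198 without underground library 32.

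Whether the untreated differences were met again was examined in the same comparison of the parts at 2, 6, 12 and 24 h, fitted at each time on 6 other libraries. Of the 3680 genes higher aboveground at 0 h, 2439 (66.3%) were again called higher aboveground after 2 h, 2979 (81.0%) after 6 h, 2957 (80.4%) after 12 h and 2313 (62.9%) after 24 h. Of all genes tested at those times, 16.8%, 18.8%, 19.0% and 14.6% were called higher aboveground. Of the 3990 genes higher underground at 0 h, 2022 (50.7%) were again called higher underground after 2 h, 3256 (81.6%) after 6 h, 2753 (69.0%) after 12 h and 2403 (60.2%) after 24 h, beside 20.1%, 29.5%, 20.2% and 19.7% of all genes tested. The genes called without treatment were thus called in the same direction more often than all tested genes at each time, and the shares were lowest at 2 h and 24 h in both directions. For the genes higher underground at 2 h the share was 42.6% without underground library 3 of that time, in a fit with 2 underground libraries.

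The sign was shared more widely than the call. Among the genes higher aboveground at 0 h that were tested at the later time, 92.9%, 98.2%, 97.2% and 91.4% had the same sign after 2, 6, 12 and 24 h. Among those higher underground, 89.1%, 98.8%, 97.3% and 95.3% had. Calls in the opposite direction were few, at 39, 5, 23 and 21 genes for those higher aboveground and 56, 1, 8 and 39 genes for those higher underground. The median log2 difference of the tested genes higher aboveground was 1.94, 2.02, 2.12 and 1.97 at 2, 6, 12 and 24 h. For those higher underground it was -1.11, -1.52, -1.21 and -1.44, beside medians of -0.17, -0.26, -0.07 and -0.39 over all genes tested at those times.

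**Figure D5:**
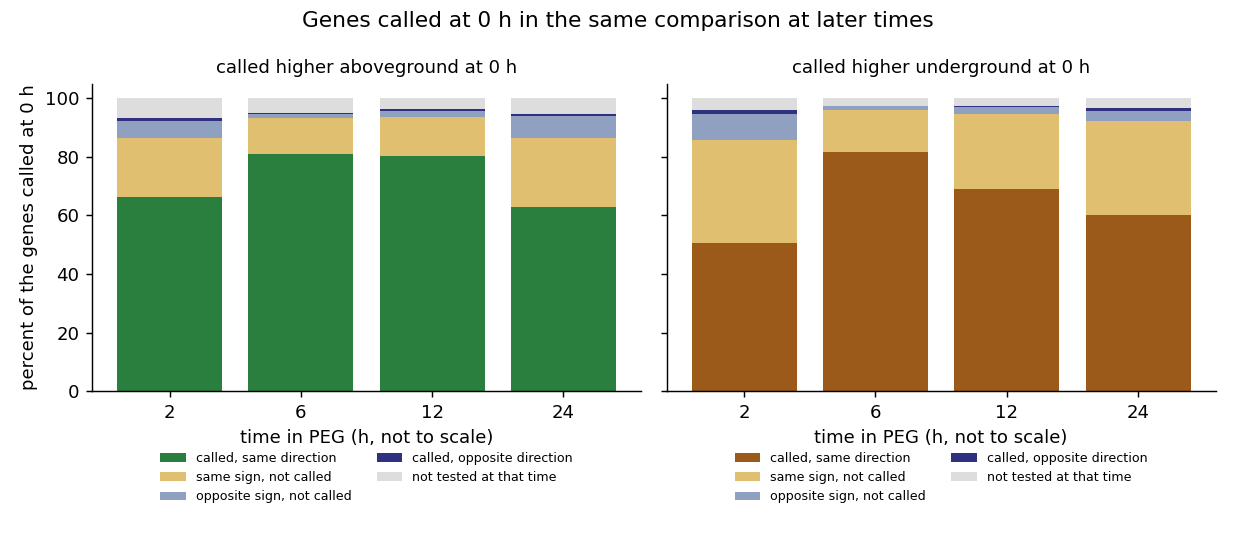
Percent of the genes called higher aboveground at 0 h (left panel, 3680 genes) and higher underground at 0 h (right panel, 3990 genes) by their result in the same comparison after 2, 6, 12 and 24 h in PEG (axis not to scale), from called in the same direction at the bottom to not tested at the top. Called in the same direction were 62.9% to 81.0% on the left and 50.7% to 81.6% on the right.

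At 0 h and all 4 later times, 1777 genes (48.3% of 3680) were called higher aboveground and 1486 (37.2% of 3990) higher underground. The count higher underground was 947 without underground library 32. Whatever their result at 0 h, 1879 genes were called higher aboveground and 1830 higher underground at all 4 later times. At each of these times 21218 to 22048 genes were tested. Genes with large differences at 0 h were called at every time more often: 319 of 358 genes higher aboveground by 5 or more on the log2(TPM + 1) scale (89.1%) and 125 of 143 such genes higher underground (87.4%), against 23 of 300 (7.67%) and 137 of 837 (16.4%) for differences under 1. At no later time were 253 of the genes higher aboveground (6.88%) and 408 of those higher underground (10.2%) called again in their direction, and 74 and 78 genes were called in the opposite direction at least once. The genes called at all 4 treated times but not at 0 h numbered 102 higher aboveground and 344 higher underground. Of the 94 and 306 of them tested at 0 h, 89 and 297 had the same sign there.

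Some libraries with higher levels of genes of the other part were also left out, a choice made after the data were seen. In the treated underground groups, Glyur000604s00024572 had 513 TPM in library 3 at 2 h and 170 TPM in library 6 at 6 h, and at most 5.86 TPM in the other libraries of those groups. Glyur000183s00013020 had 208 and 57.0 TPM in these libraries 3 and 6, and at most 5.11 TPM in the others. No wider set of genes is given for single treated libraries. Underground library 7 at 12 h, with 21.6 TPM of Glyur000604s00024572 against 0.2 and 4.51 TPM in libraries 8 and 9, was not left out. Without library 3 at 2 h, 61.1% of the genes higher aboveground and 42.6% of those higher underground at 0 h were called again. Without library 6 at 6 h, 74.3% and 61.9% were. In these fits 15.2% and 17.3% of all tested genes were called higher aboveground and underground at 2 h, and 16.6% and 19.4% at 6 h. Each fit had 2 underground libraries and needed 1 TPM in 3 of 5 libraries, which can lower the shares whichever library is left out. The other treated libraries were not left out in turn, so a part of these libraries in the lower shares was not tested. With aboveground library 33 left out of the 0 h comparison, 73.0%, 88.4%, 84.4% and 66.2% of the 2440 genes then higher aboveground and 54.1%, 85.1%, 70.9% and 62.8% of the 3691 then higher underground were called again at 2, 6, 12 and 24 h.

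Genes with neighbouring identifiers leaned to the same part. Among 13004 pairs of tested genes that follow each other in the list under the same prefix, both genes were called higher aboveground in 511 pairs, both higher underground in 582 pairs, and 1 of each in 715 pairs. The neighbour of a gene higher aboveground was called higher aboveground in 23.3% of cases, against 16.9% of all tested genes, and higher underground in 16.3%, against 18.3%. The neighbour of a gene higher underground was called higher underground in 23.8% of cases, against 18.3%, and higher aboveground in 14.6%, against 16.9%. The files do not say what the identifiers encode, reads shared between similar copies could add to such pairs, and the shares are a description with no test.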

How the data were processed

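Each library has a table of TPM values as the authors deposited them, per the file headers, to 2 decimals and with the same 34445 genes. Per the submitters' processing notes, fastp, HISAT2, StringTie, RSEM, DESeq2 and edgeR were used, without versions or roles. The genome build was not given in the sources used here. Listed genes of the untreated libraries summed to between 948502 and 958104 TPM. TPM is a share of the RNA pool, so very abundant genes of one part lower all others; median-ratio scaling was therefore tried.

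From the deposited TPM, log2(TPM + 1) was tested with limma 3.58.1 in R 4.3.3 (mean-variance trend, Benjamini-Hochberg adjustment over all tested genes, threshold 0.05), on genes with at least 1 TPM in at least 3 of the 6 libraries compared. Each time was fitted on its own 6 libraries, as aboveground minus underground. Sample descriptions gave the groups. The fit was tested on simulated data. Figures were drawn with matplotlib 3.10.9.

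Library numbers in the titles are shared by the parts. The deviations of same-numbered untreated libraries from their group means correlated across genes at 0.310, 0.286 and 0.347, and those of other pairs at -0.208 to -0.0602. Deviations cancel within a part, so these values depend on each other, and genes are not independent replicates. Whether the numbers pair the libraries was not tested, and the labels do not say what they mark. The main fit had no block. Named genes were chosen, in each direction, among called genes with no overlap, a mean in the higher part of 10 TPM or more and a value above 0 in the other: the largest log2 difference and the highest mean not already named. Gene lists by function and marker genes were not used, as the files hold no gene names. The comparison, limits and groups were chosen with earlier results of these data known. Alternatives were no filter, a filter of at least 5 TPM, a pseudocount of 0.1, median-ratio scaling, quantile normalization, limma without trend, all 30 libraries in 1 fit, a block for the library number, and omission of each library in turn. Splicing was not analysed here.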

Additional observations from a re-analysis of the deposited data

How the results depend on the processing

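Without read depth, counting error at low TPM is unknown. The differences of the 4 named genes kept their direction and passed the test under all 14 alternatives, with limma adjusted p from 1.09e-09 to 0.00776. With the library number as a replicate block, 8311 genes were called in place of 7670 (3885 higher aboveground and 4426 higher underground). A like level was shown for 5587 in place of 5004, and 1829 and 1614 were called at every time in place of 1777 and 1486. The block thus changed no call of a named gene and no count by over 1.5 times. The counts of calls also stayed within 1.5 times under the other filters, the other pseudocount, both rescalings, limma without trend and the fit of all 30 libraries (4291 higher aboveground and 5003 higher underground). Leaving out single libraries gave 4439 to 6137 calls, 2101 to 3320 higher aboveground (2065 to 3173 at least 2-fold), 1970 to 3691 higher underground (1840 to 3309 at least 2-fold), 1254 to 1739 and 947 to 1475 called at every time, and 3198 to 4419 at a like level. The class of 5 or more on the log2 scale held 807 and 381 genes with a pseudocount of 0.1, and 354 to 365 higher aboveground and 98 to 106 higher underground without an underground library. A limit of 1.5-fold left 649 genes at a like level. The library check held 56 aboveground and 17 underground genes with limits of 5 and 1 TPM, and 1056 and 594 with the mean difference of 3, in place of 7 and 4. Genes detected in 1 part alone numbered 252 aboveground and 112 underground with up to 0.1 TPM allowed in the other part.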
